A study of Mus musculus with 4 samples.

Results

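The transcripts of the secretory IgA system were followed in mouse colon through 9 genes, which were chosen by symbol from the 32285 genes counted. They are Igha (the constant region of the IgA heavy chain), Ighm (the constant region of the IgM heavy chain), Igkc (the kappa light chain constant region), Iglc1, Iglc2 and Iglc3 (3 lambda light chain constant regions), Jchain, Mzb1 and Pigr. Plasma cells below the gut epithelium make IgA as a dimer that the J chain holds together, and the J chain is also part of polymeric IgM. The polymeric immunoglobulin receptor, encoded by Pigr, takes up these polymers at the base of epithelial cells, carries them across the cell and releases them into the lumen with a fragment of itself attached, the secretory component. MZB1 is a protein of the endoplasmic reticulum that helps antibody-secreting cells fold and export antibody.

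The cells came from the colon of C57/BL6J mice and transcripts of single cells were counted from the 3' end, as unique molecular identifiers (UMIs), in 2 batches. The 4 conditions were JUP-KO given dextran sulfate sodium (DSS, which injures the colon lining), untreated JUP-KO, wild type given DSS and untreated wild type, each marked with 1 hashtag antibody before all cells of the same batch were pooled, viable cells were sorted and the pool was run in droplets. The promoter or cell type of the Jup deletion, the number of mice and whether the batches were separate mice are not given in the sources used here, so a p-value here measures spread between batches that may be technical.

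The hashtags are named TG_DSS, TG_WT, Ctrl_DSS and Ctrl_WT in the files, and nothing there ties a name to an antibody number. TG_DSS is JUP-KO given DSS and Ctrl_WT is untreated wild type whether the tags are read by name or by antibody number. The other tags depend on the reading: untreated JUP-KO is TG_WT by name and Ctrl_DSS by antibody number, and wild type given DSS is the remaining tag. Jup, the targeted gene, had 29.4 and 60.9 CPM (counts-per-million, over all UMIs of the summed cells) in epithelial-like cells labelled TG_DSS (batches 1 and 2), 77.4 and 93.1 in TG_WT, 13.6 and 8.87 in Ctrl_DSS and 70.3 and 65.6 in Ctrl_WT. It was thus lowest in cells labelled Ctrl_DSS and was not low in cells labelled TG_WT, which goes against the reading by name. All groups are therefore given by tag name. Each contrast below between a pair of tags differs by 1 factor, genotype or treatment, under both readings.

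Batch 1 held 133919905 UMIs and batch 2 held 95408149. The 7157 and 6472 cells kept had medians of 12301 and 7090.5 UMIs, 5511 of them carried exactly 1 tag, and 14 cell barcodes occurred in both batches. Tagged cells per batch numbered 1245 and 1314 for TG_DSS, 521 and 1263 for TG_WT, 407 and 492 for Ctrl_DSS and 177 and 92 for Ctrl_WT. Of 25 clusters, 13 were epithelial-like. Intervals given below are exact 95% intervals that cover counting error only.

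Positions are given on the mm10 build. Igha (chr12:113254830-113260236) and Ighm (chr12:113418558-113422730), both on the minus strand, belong to the heavy chain locus. Igkc lies at chr6:70726435-70726966 on the plus strand. Pigr spans chr1:130826684-130852249 on the plus strand and Jchain chr5:88519809-88527891 on the minus strand. The lambda genes lie on the minus strand of chromosome 16, Iglc1 at 19061618 to 19062071, Iglc3 at 19065230 to 19065681 and Iglc2 at 19198396 to 19200351.

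Counts from a 3' kit can tell the lambda genes apart only where their sequences differ near the 3' end, so the last 90 coding bases of each are shown, from the mm10 genome and in the direction of transcription. Capitals mark the 29 positions at which the 3 genes are not all alike. The stretches are chr16:19061755-19061844 for Iglc1, chr16:19198539-19198628 for Iglc2 and chr16:19065368-19065457 for Iglc3.
Iglc1: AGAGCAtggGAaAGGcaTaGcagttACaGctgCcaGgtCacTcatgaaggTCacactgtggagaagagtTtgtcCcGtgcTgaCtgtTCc
Iglc2: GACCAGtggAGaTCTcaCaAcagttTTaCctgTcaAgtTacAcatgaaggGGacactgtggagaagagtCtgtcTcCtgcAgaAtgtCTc
Iglc3: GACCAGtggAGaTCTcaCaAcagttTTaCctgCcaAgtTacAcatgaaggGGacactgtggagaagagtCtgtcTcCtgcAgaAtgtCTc
Iglc2 and Iglc3 differed at 1 of these 90 positions, shared a longest run of 79 bases and were 96.2% identical over their coding sequence. Iglc1 differed from Iglc2 at 29 positions and from Iglc3 at 28, with a coding identity of 73.4% and 74.5%. After the coding sequence, the transcripts of Iglc2 and Iglc3 were 90% identical, and those of Iglc1 51.8% and 52.5% identical to them. Reads that lie wholly in a stretch shared by Iglc2 and Iglc3 cannot be assigned to either gene, so their separate counts are uncertain.

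Plasma cells and B cells fell into 1 cluster of 146 cells when 394 immunoglobulin genes and the 9 genes themselves were kept out of the clustering. The cluster was divided, after its cells had been seen, into 87 plasma-like cells with more UMIs from plasma markers than from B markers and 59 B-like cells. Within a factor of 2 of that division lay 3 plasma-like and 2 B-like cells. As a description of that division, 14 of 14 plasma markers were detected in at least 25% of plasma-like cells, while Ms4a1 (CD20, a B cell surface protein lost on plasma cell maturation) was detected in 8.05% of plasma-like and 78.0% of B-like cells. The check of the label that the division did not use is Jchain, which had UMIs in 87 of 87 plasma-like and 2 of 59 B-like cells.

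Antibody transcripts made up much of the RNA of these cells. The 6 immunoglobulin genes took a median of 30.2% of the UMIs of the 15 plasma-like cells in batch 1 (range 0.637% to 66.1%) and 48.3% of the 72 in batch 2 (0% to 83.2%), against medians of 0.497% and 0.592% in B-like cells. They passed 50% in 5 cells (33.3%) of batch 1 and 34 cells (47.2%) of batch 2. The median plasma-like cell held 6572 UMIs in batch 1 and 17246 in batch 2, whereas the median over all cells was lower in batch 2.

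**Figure D1:**
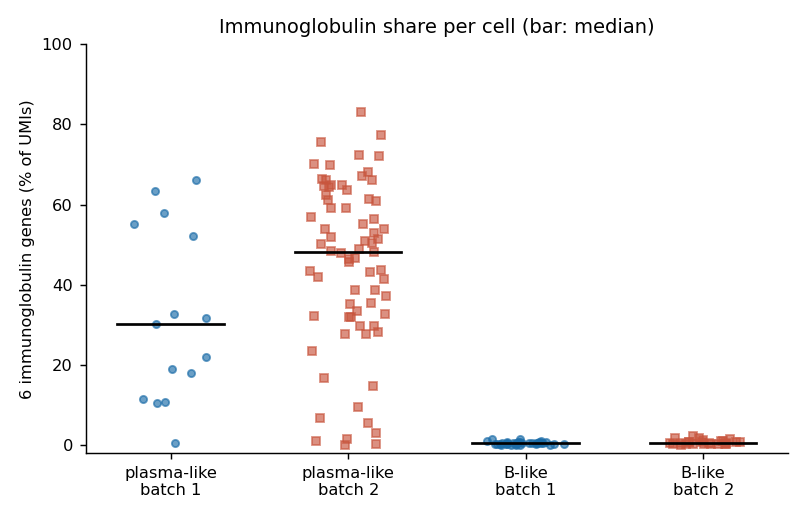
Share of each cell's UMIs that came from the 6 immunoglobulin genes (vertical axis, percent), for plasma-like and B-like cells of batches 1 and 2; each point is 1 cell and the bar is the median. Plasma-like cells spread from under 1% to 83.2%, with medians of 30.2% and 48.3%, while B-like cells stayed near 0.

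Summed over plasma-like cells, Igkc came first, with 337836 CPM in batch 1 and 396295 in batch 2. Igha reached 60568 and 90619 CPM and Jchain 66407 and 64891. All 3 were of similar size in both batches. Mzb1 was far lower, at 1391 and 1941 CPM, and had a UMI in 10 of 15 and 61 of 72 cells. Ighm stood at 14309 and 6236 CPM, and 3 cells held most of it, as given below. Pigr was close to absent, with 2 UMIs (12.5 CPM) in batch 1 and 65 UMIs (50.9 CPM) in batch 2.

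IgA was the heavy chain of most plasma-like cells. A chain was assigned where it made up at least 80% of at least 10 heavy chain UMIs, and 75 of 87 cells (86.2%) were assigned Igha, 3 Ighm, 1 Ighg2b and 1 Ighg2c. A further 2 cells held more than 1 heavy chain, both with more than 1 hashtag, and 5 held too few UMIs. The 75 Igha cells had a median of 1437 Igha and 1193 Jchain UMIs per cell, and Jchain took a median of 5.93% of their UMIs (0.116% to 16.2%).

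The 3 Ighm cells had no Igha UMI. The untagged cell of batch 1 held 2272 Ighm UMIs with 2078 Jchain UMIs, and the 2 cells of batch 2, both labelled Ctrl_DSS, held 1376 and 4406 Ighm UMIs with 1434 and 1058 Jchain UMIs. Their Jchain share of 2.29% to 9.03% lay inside the range of the Igha cells. The Ighg2b cell (labelled TG_DSS, batch 2, 887 Ighg2b UMIs) and the Ighg2c cell (labelled Ctrl_DSS, batch 2, 491 Ighg2c UMIs) carried IgG heavy chains and still had 270 and 144 Jchain UMIs, 1.84% and 3.81% of their totals.

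Over plasma-like cells of at least 1000 UMIs, Spearman's rho between the immunoglobulin share and the Jchain share of a cell's UMIs was 0.860 over 12 cells in batch 1 and 0.415 over 69 cells in batch 2. The cells of a batch share 1 library, and both shares have the cell's total in common.

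Light chains were mostly kappa. Kappa was assigned to 75 plasma-like cells (86.2%) and lambda to 5 (5.75%), 2 held both and 5 held too few UMIs. Each lambda cell used nearly a single gene. In batch 1, a cell labelled TG_DSS with 22007 UMIs held 11381 Iglc3, 35 Iglc2 and 0 Iglc1 UMIs, so Iglc3 made up most of its transcripts. The other lambda cell of batch 1, labelled Ctrl_DSS, held 81 Iglc1 UMIs and 1 Iglc3 UMI. In batch 2, 3 untagged cells held 12794, 11423 and 6293 Iglc1 UMIs beside 66, 21 and 19 Iglc2 UMIs and 1, 0 and 0 Iglc3 UMIs. Iglc2, which matches Iglc3 in the printed stretch at all positions but 1, received 0.307% of the lambda UMIs of the Iglc3 cell, and Iglc1 received none.

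These few cells held most of the lambda UMIs of their batch's leading lambda gene. Iglc3 stood at 71763 CPM in plasma-like cells of batch 1 and 368 CPM in batch 2, and Iglc1 at 1453 and 32040 CPM. Of the 11455 Iglc3 UMIs in plasma-like cells of batch 1, 11381 came from the 1 Iglc3 cell. Iglc2 had 3396 and 1367 CPM.

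Genes of antibody export and plasma cell identity, some of which had been used to separate the cells, were described from a list of 20. Xbp1, a transcription factor of the secretory apparatus, had 1059 and 1147 CPM in plasma-like cells against 127 and 157 in epithelial-like cells. Hsp90b1, a chaperone of the endoplasmic reticulum, had 2412 and 1594 CPM against 447 and 437. Tnfrsf17 (BCMA, a survival receptor of plasma cells) had 17 and 92 UMIs in plasma-like cells and 1 and 5 in all epithelial-like cells. These 3 were named after their values were seen.

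Chemokine genes known to guide IgA cells are given next, again named after their values were seen. Ccr10, the receptor for CCL28, had 81.4 CPM (13 UMIs) and 40.7 CPM (52 UMIs) in plasma-like cells, against 0.273 and 0.191 CPM in epithelial-like cells. Ccl28 had 80.3 and 72.2 CPM in epithelial-like cells and 0 and 3 UMIs in plasma-like cells. Ccr9, the receptor for CCL25 used in homing to the small intestine, had 0 and 5 UMIs in plasma-like cells.

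Plasma-like cells were sparse under every tag. In batches 1 and 2, 1 and 9 carried the tag TG_DSS, 2 and 15 TG_WT, 7 and 7 Ctrl_DSS and 0 and 0 Ctrl_WT, while 2 and 8 carried more than 1 tag and 3 and 33 none. As a share of leukocyte-like cells they were 0.107% (1 of 935, interval 0.00271% to 0.594%) and 0.802% (9 of 1122, 0.367% to 1.52%) in TG_DSS. The share was 3.64% (2 of 55, 0.443% to 12.5%) and 1.63% (15 of 918, 0.917% to 2.68%) in TG_WT. It was 6.86% (7 of 102, 2.80% to 13.6%) and 9.59% (7 of 73, 3.94% to 18.8%) in Ctrl_DSS. In Ctrl_WT the share was 0% in both batches, with 0 of 75 and 0 of 21 cells and exact upper limits of 4.80% and 16.1% (4.00% and 14.3% if 3 counts are taken as the limit). Over leukocyte-like cells the shares in Ctrl_DSS were above those in TG_DSS and TG_WT in both batches, although the intervals of Ctrl_DSS and TG_WT overlapped in batch 1. Over all cells of a tag they were 0.0803% and 0.685% in TG_DSS, 0.384% and 1.19% in TG_WT, 1.72% and 1.42% in Ctrl_DSS and 0% in Ctrl_WT. By that denominator Ctrl_DSS (0.574% to 2.91%) and TG_WT (0.666% to 1.95%) had overlapping intervals in batch 2 too. These shares count plasma-like cells of every heavy chain. Those assigned Igha numbered 1 and 7 in TG_DSS, 1 and 15 in TG_WT and 7 and 3 in Ctrl_DSS. In batch 2, Igha cells were 3 of 73 leukocyte-like cells in Ctrl_DSS and 15 of 918 in TG_WT, so Ctrl_DSS stayed higher. Over all cells of the tag they were 3 of 492 and 15 of 1263, so Ctrl_DSS was lower. The smallest exact permutation p for 2 values against 2 is 0.333, so no test was made.

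The denominators of these shares differ widely: leukocyte-like cells numbered 935 and 1122 under TG_DSS but 75 and 21 under Ctrl_WT. Of plasma-like cells 20.0% were untagged in batch 1 and 45.8% in batch 2, while no B-like cell was. Over all kept cells 63.4% and 40.4% were untagged. In batch 2, 33 of the 73 untagged leukocyte-like cells were plasma-like. The part of these differences in the shares was not tested.

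**Figure D2:**
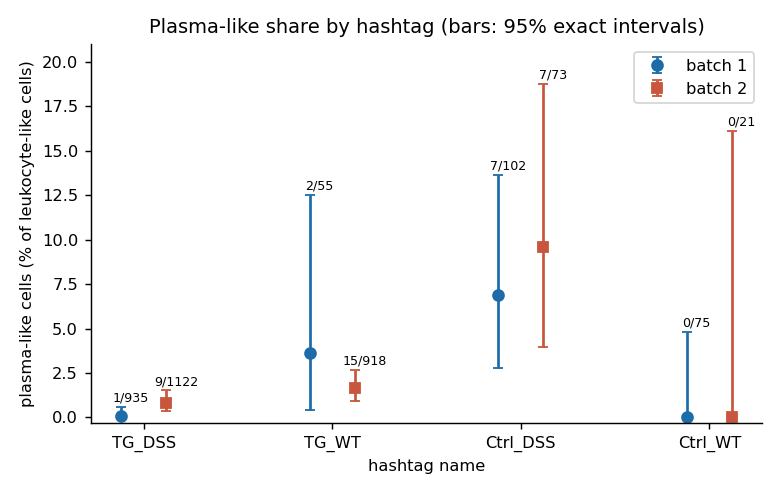
Plasma-like cells as a percentage of leukocyte-like cells (vertical axis) for each hashtag name and batch, with exact 95% binomial intervals and the counts written above. Both Ctrl_DSS values (6.86% and 9.59%) lie above the TG_DSS values (0.107% and 0.802%), and the Ctrl_WT values are 0 with wide intervals.

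The weight of the transcripts within plasma-like cells could be given for 3 tags. Igha took 5.87% and 8.82% of the UMIs of TG_DSS plasma-like cells, 5.51% and 11.6% in TG_WT and 9.23% and 4.83% in Ctrl_DSS. The 7 Ctrl_DSS cells of batch 2 had a median of 0% Igha, and 3 of them were assigned Igha. Jchain took 12.2% and 5.40% in TG_DSS, 8.11% and 5.90% in TG_WT and 4.38% and 5.72% in Ctrl_DSS. For Igha the ranges of the 3 tags overlapped, whereas for Jchain both TG_WT sums lay above both Ctrl_DSS sums. The medians over cells were 4.29% and 5.18% in TG_WT and 1.09% and 5.36% in Ctrl_DSS, so they overlapped, and 1 of the 2 TG_WT cells of batch 1 held 18607 of their 19391 UMIs. The TG_DSS value of batch 1 is a single lambda cell, in which Igkc was 0.218% of UMIs, against 34.9% in batch 2. At least 10 cells in both batches were asked for a test, which no tag reached, so none was made.

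Outside plasma-like cells the members differed in where they were found. Igkc, Igha and Jchain were low and higher in batch 2, except in B-like cells, where Igha had 316 and 87.7 CPM and Jchain 29.4 and 7.31 CPM (4 and 1 UMIs). Ighm was of similar level in both batches in some immune classes, and Pigr was highest in epithelial-like cells. Plasma-like cells held 88.8% and 85.3% of the UMIs of the 6 immunoglobulin genes in batches 1 and 2, other kept cells apart from B-like ones 1.68% and 10.1%, and barcodes of 100 UMIs or fewer 5.46% and 3.69%.

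**Figure D3:**
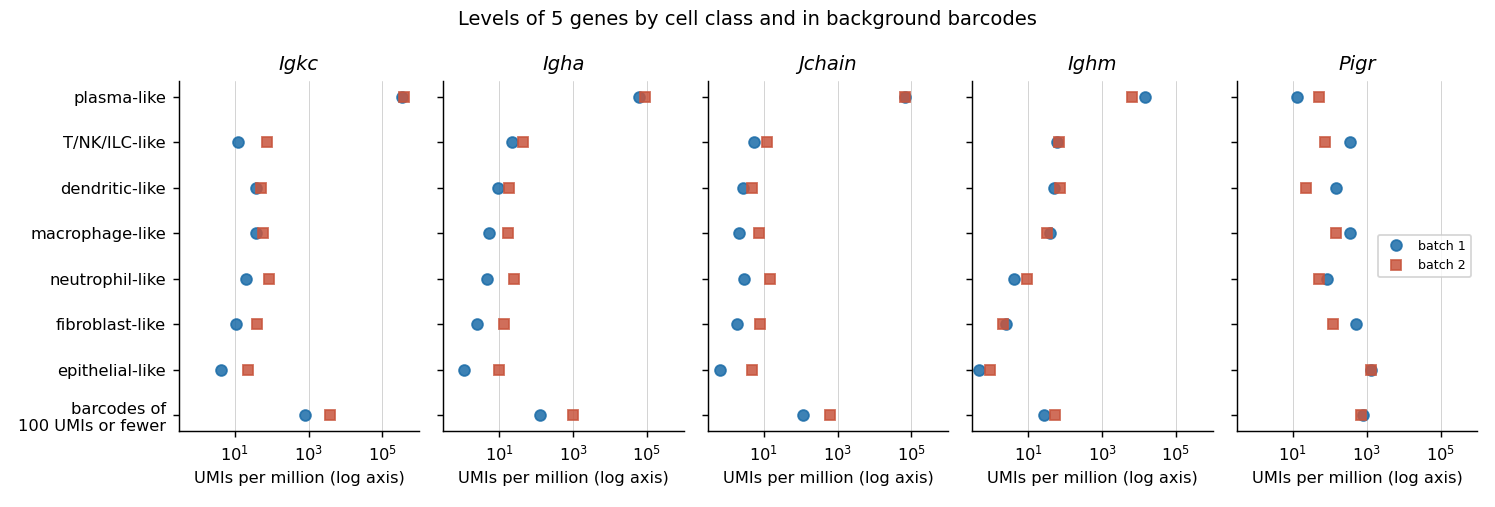
Levels of 5 genes (horizontal log axes, CPM) in 7 cell classes and in barcodes of 100 UMIs or fewer; circles are batch 1, squares batch 2, and droplets of at least 1% immunoglobulin UMIs outside plasma-like cells are left out. Igkc, Igha and Jchain are high in plasma-like cells and higher in batch 2 than in batch 1 elsewhere, while Ighm in T/NK/ILC-like cells and Pigr in epithelial-like cells hardly differ between the batches.

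Barcodes of 100 UMIs or fewer served as the background and were taken to hold free RNA, which was not tested. In 1587659 such barcodes of batch 1 and 1146984 of batch 2, Igkc had 789 and 3710 CPM, Igha 127 and 1018, and Jchain 117 and 619. The 6 immunoglobulin genes together had 983 and 5004 CPM, 5.09 times as many in batch 2, and plasma-like cells numbered 15 in batch 1 and 72 in batch 2. Pigr went the other way, with 795 and 711 CPM. Mzb1 had 4.71 and 24.7 CPM.

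The lambda genes differed between batches in the background too. Iglc3 had 25.4 CPM in batch 1 and 4.81 in batch 2, a ratio of 0.189, and Iglc1 had 7.99 and 203, a ratio of 25.4. In plasma-like cells the batch ratio was 0.00513 for Iglc3, and Iglc1 was again higher in batch 2. Iglc1 and Iglc3 thus differed between the batches in the same direction in the background and in plasma-like cells. Iglc2 did not, with a ratio of 2.18 in the background and 0.403 in plasma-like cells.

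Within the background, Igkc was higher in the poorest barcodes. Igkc had 1076 and 6150 CPM in barcodes of 1 to 10 UMIs against 393 and 2790 in barcodes of 11 to 100 UMIs, whereas Pigr had 737 and 686 against 875 and 720. Ighg2c in batch 2 had 7.53 against 141 CPM. Most background barcodes, 1559326 in batch 1 and 1088273 in batch 2, held 1 to 10 UMIs, so levels in the background depended on the limit chosen. The UMIs were spread thinly: the 3854 background UMIs of Igkc in batch 1 lay in 3784 barcodes, and no barcode there held more than 8.

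Epithelial-like cells held few antibody transcripts. Without 2 droplets described next, Igkc had 4.17 and 23.3 CPM, Igha 1.12 and 9.70 CPM and Jchain 0.633 and 4.71 CPM in batches 1 and 2. These are batch ratios of 5.59, 8.63 and 7.44, and those in the background were 4.70, 8.03 and 5.29. Other members had ratios further from the background: 4.20 against 25.4 for Iglc1, 0.587 against 2.18 for Iglc2, 0.0652 against 0.189 for Iglc3 and 0.278 against 5.25 for Mzb1, each at under 3 CPM in epithelial-like cells. Across the other classes the Igkc ratio was 5.85 in T/NK/ILC-like, 4.17 in neutrophil-like, 3.87 in fibroblast-like, 1.63 in macrophage-like, 1.37 in dendritic-like and 1.17 in plasma-like cells. The Igkc levels of 4.17 and 23.3 CPM in epithelial-like cells stood beside 789 and 3710 CPM in the background. Levels over whole cells and over background barcodes are not like measures. The part of free RNA in the UMIs of these cells was not tested.

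A few droplets outside the plasma-like class held very many antibody UMIs. At least 1% of the UMIs were from the 6 genes in 1 droplet of batch 1 and 10 of batch 2, and those 10, of which 4 carried more than 1 hashtag, held 94.5% of the immunoglobulin UMIs of that batch outside plasma-like and B-like cells. Among epithelial-like cells there were 2, both labelled TG_WT in batch 2, with 45554 and 121896 UMIs. The first held 4416 Igha and 1658 Jchain UMIs, the second 2999 Ighm UMIs and 1 Igha UMI. Together they held 94.0% of the immunoglobulin UMIs of epithelial-like cells in batch 2, and both also carried plasma markers (93 and 215 UMIs). Whether each held a second cell was not tested.

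Ighm was followed through the immune classes without the droplets of at least 1% immunoglobulin UMIs. In T/NK/ILC-like cells it had 59.2 CPM (33 UMIs) in batch 1 and 66.5 CPM (87 UMIs) in batch 2, and in dendritic-like cells 48.8 and 73.0 CPM. Macrophage-like cells had 39.3 and 32.2 CPM. Neutrophil-like cells had 4.16 and 9.18 CPM, fibroblast-like cells 2.50 and 2.02 and epithelial-like cells 0.458 and 0.884. The batch ratios of Ighm were 1.12 in T/NK/ILC-like and 0.820 in macrophage-like cells. Igkc in T/NK/ILC-like cells had 12.6 CPM (7 UMIs) and 73.4 CPM (96 UMIs). After each cell was thinned to 2000 UMIs, 15.4% of 91 T/NK/ILC-like cells of batch 1 had an Ighm UMI and 3.30% an Igkc UMI, and in batch 2 10.8% of 213 had an Ighm UMI and 13.1% an Igkc UMI. At the same depth 0% and 0.250% of epithelial-like cells had an Ighm UMI. Ighm was thus more frequent than Igkc in T/NK/ILC-like cells of batch 1 and not in those of batch 2.

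Among the classes with a single identity, Pigr was highest in epithelial-like cells. There it had 1313 and 1277 CPM in batches 1 and 2, and 72.3% and 67.8% of cells had a Pigr UMI after thinning to 2000 UMIs. In 2 clusters that carried both epithelial and neutrophil markers, and were kept out of the epithelial-like sums, it had 1281 and 1534 CPM. Neutrophil-like cells had 84.5 and 49.8 CPM. In fibroblast-like cells Pigr had 498 and 121 CPM, beside 795 and 711 CPM in the background. Igkc had 10.6 and 41.1 CPM in the same cells, beside 789 and 3710 CPM in the background. Levels over whole cells and over background barcodes are not like measures. The part of free RNA in the Pigr of these cells was not tested.

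The level of Pigr differed between the epithelial-like clusters, which were formed without the gene. A colonocyte-like cluster led by Fxyd4 had the highest mean, 1807 CPM (1812 and 1802), followed by a stem or transit-amplifying-like cluster led by Htr4 with 1748 CPM (1716 and 1780). A cluster with no subtype, led by the antimicrobial lectin gene Reg3b, had 1465 and 1806 CPM, and the goblet-like cluster led by Spink4 had 1552 and 1709 CPM. Cycling cells, led by Hist1h1b, had 1262 and 1437 CPM. These 5 clusters were also the first 5 in each batch, and their means differed by no more than the gap between batches from one to the next apart from the step to the cycling cells.

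Further down the order, the Slc8a1-led cluster with no subtype had 914 and 1250 CPM, the enteroendocrine-like cluster 1008 and 591, the Tex14-led cluster 914 and 534 and the tuft-like cluster 817 and 382. In these 4 clusters the batches differed more than the neighbouring means did. The goblet-like cluster led by Clca1 had 728 and 683 CPM, and colonocyte-like clusters led by Slc10a2 and Slc37a2 had 604 and 763, and 552 and 741 CPM. The colonocyte-like cluster led by Aqp8, a water channel gene, had the lowest mean with 430 and 423 CPM. By the mean of batches the highest and the lowest cluster were both colonocyte-like, whereas in batch 2 the Reg3b-led cluster was highest and the tuft-like cluster lowest. Over the 13 clusters the batches correlated with Pearson's r of 0.888 and Spearman's rho of 0.731.

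**Figure D4:**
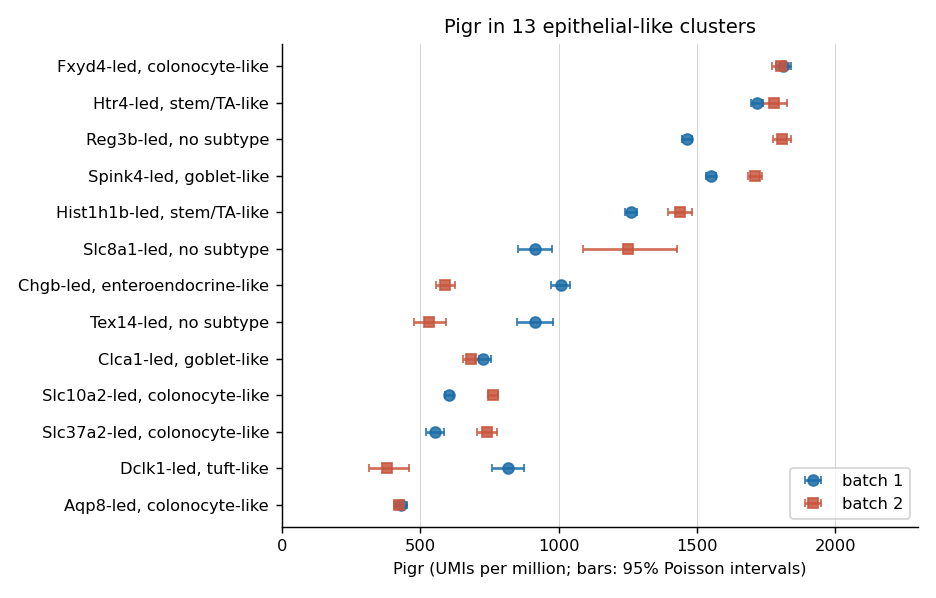
Pigr level (horizontal axis, CPM) in the 13 epithelial-like clusters, named by leading gene and subtype and ordered by mean; circles are batch 1, squares batch 2, and bars are 95% Poisson intervals of the counts. The Fxyd4-led, Htr4-led, Reg3b-led and Spink4-led clusters lie at or above 1465 and the Aqp8-led cluster lies at 430 and 423.

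Genes with patterns most like that of Pigr were sought over 26 sums, 1 for each epithelial-like cluster and batch, by Pearson's r of log2(CPM + 1). They were Tmem11 (0.853), Oat (0.848), Dnajc21 (0.847), Cpsf2 (0.845) and Gtf2h3 (0.842). For Igha, over 24 sums of class and batch, they were Jchain (0.968), Igkc (0.937), Gm30211 (0.853), Iglc1 (0.846) and Prg2 (0.834). Both searches took genes with at least 10 CPM in 1 sum, and that for Igha left out immunoglobulin genes other than the members. Sums of a batch share their library and its background.

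Pigr was then compared between tags in sums of epithelial-like cells, which held 88 and 77 cells for TG_DSS, 345 and 195 for TG_WT, 298 and 395 for Ctrl_DSS and 96 and 57 for Ctrl_WT. It had 1203 and 1391 CPM in TG_DSS, 1378 and 827 in TG_WT, 1600 and 1587 in Ctrl_DSS and 1088 and 1776 in Ctrl_WT. The value of TG_WT in batch 2 was the lowest of the 8 and stayed at 842 CPM without the 2 droplets rich in antibody UMIs. Both TG_DSS values lay below both Ctrl_DSS values, and the values overlapped in the 3 other contrasts between a pair of tags.

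No contrast of Pigr passed the test, edgeR's quasi-likelihood test with batch as a term and Benjamini-Hochberg adjustment at 0.05 over 12209 genes. The log2 fold change was -0.36 in TG_DSS against Ctrl_DSS (95% interval -1.06 to 0.34, adjusted p = 0.616), with -0.44 and -0.28 within batches 1 and 2. It was 0.13 in TG_DSS against TG_WT (-0.57 to 0.83, adjusted p = 0.925), with -0.23 and 0.56 within batches. It was -0.39 in TG_WT against Ctrl_WT (-1.10 to 0.32, adjusted p = 0.896), with 0.29 and -1.08 within batches. It was 0.10 in Ctrl_DSS against Ctrl_WT (-0.60 to 0.80, adjusted p = 0.932), with 0.50 and -0.23 within batches. The change thus kept its sign in both batches only in TG_DSS against Ctrl_DSS. The interaction of both factors was 0.03 (-0.97 to 1.03, adjusted p = 1).

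The makeup of the sums differed between tags. Goblet-like cells made up 20.5% and 11.7% of the sums of TG_DSS and 42.3% and 41.8% of those of Ctrl_DSS, and enteroendocrine-like cells 27.3% and 32.5% against 3.02% and 1.77%. Within subtypes the contrast of TG_DSS with Ctrl_DSS was -0.23 in goblet-like clusters alone, 0.056 in colonocyte-like clusters alone and 0.14 in stem or transit-amplifying-like clusters alone. The TG_DSS sums behind these held 18 and 9, 22 and 20 and 9 and 3 cells in that order. In TG_WT, Pigr was lower in batch 2 than in batch 1 in every subtype. It had 680 CPM in colonocyte-like cells, against 1234 in batch 1, and 1105 in goblet-like cells, against 1377. Stem or transit-amplifying-like cells had 768 against 1513, cells with no subtype 1032 against 1608, enteroendocrine-like 731 against 1075 and tuft-like 208 against 758. The stem or transit-amplifying-like and tuft-like values of batch 2 rest on 11 and 10 cells. Enteroendocrine-like cells were lower in batch 2 also under TG_DSS (1199 and 504) and Ctrl_DSS (1654 and 603), as were tuft-like cells under both. The same held for colonocyte-like cells under Ctrl_DSS (1494 and 964) and goblet-like cells under Ctrl_WT (1505 and 1352). Stem or transit-amplifying-like cells and cells with no subtype were higher in batch 2 under every other tag.

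**Figure D5:**
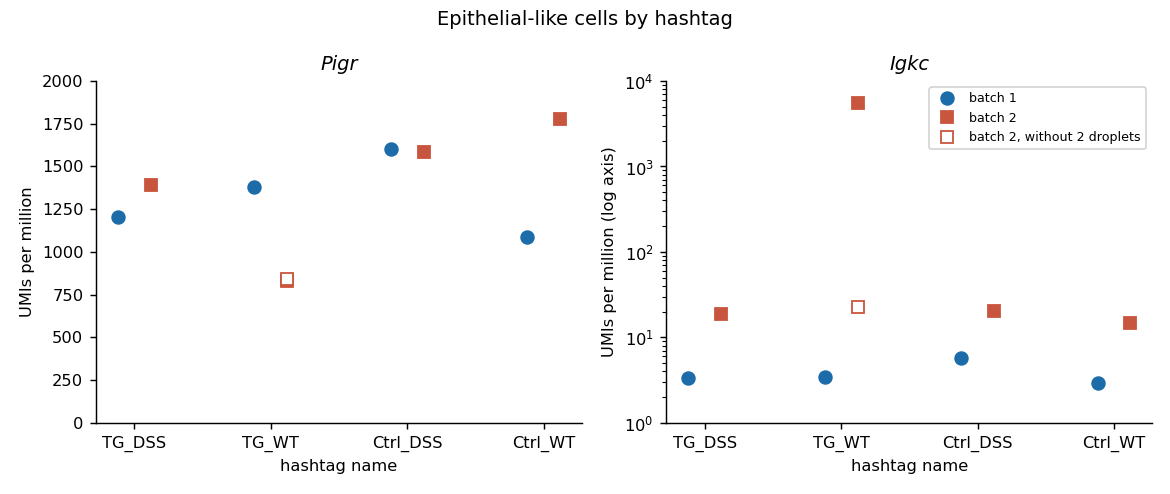
Pigr (left, CPM) and Igkc (right, CPM on a log axis) in epithelial-like cells by hashtag name; circles are batch 1, squares batch 2, and open squares leave out 2 droplets of batch 2 labelled TG_WT. Pigr ranges from 827 to 1776, and Igkc in TG_WT of batch 2 is 5577, or 22.7 once the 2 droplets are left out.

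Of the 9 members, 4 passed the expression filter in epithelial-like sums, Pigr, Igkc, Igha and Jchain, and none of the 4 was called in any contrast. Over all genes 0% were called in TG_WT against Ctrl_WT, in TG_DSS against TG_WT and in the interaction, 0.0328% in Ctrl_DSS against Ctrl_WT and 3.39% in TG_DSS against Ctrl_DSS. The contrasts with 0 calls by edgeR had 654, 1266 and 916 genes at an unadjusted p under 0.05, and DESeq2 called 23, 53 and 38. The 4 genes called in Ctrl_DSS against Ctrl_WT were S100g (-3.33), Slc8a1 (-1.89), Prkg2 (-1.63) and Ceacam10 (1.86). In TG_DSS against Ctrl_DSS, the smallest p outside the gene lists read below belonged to Ccr1 (5.39), Rab3c (3.37), Cxcr2 (6.34), Vim (4.48) and Olfr78 (5.52). Their adjusted p by edgeR lay between 0.0047 and 0.0065. Cxcr2 is among the neutrophil markers summed below. Igkc had 3.31 and 18.9 CPM in TG_DSS, 3.44 and 5577 in TG_WT, 5.69 and 20.3 in Ctrl_DSS and 2.89 and 14.8 in Ctrl_WT. In every tag it was higher in batch 2, and without the 2 droplets TG_WT had 22.7 CPM there, near the other tags.

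The fitted change of Igkc was 7.03 in TG_WT against Ctrl_WT (adjusted p = 0.871) and -6.84 in TG_DSS against TG_WT (adjusted p = 0.371), but 0.17 and -0.08 within batch 1. Igha had 7.02 and -5.89 (adjusted p = 0.647 and 0.270) and Jchain 6.05 and -5.74 (adjusted p = 0.508 and 0.224) in the same contrasts. Without TG_WT of batch 1, which leaves the sum with the droplets alone and takes the spread from the other tags, all 3 genes passed the threshold in both contrasts, with adjusted p between 7.7e-09 and 1.5e-06. Jchain also passed in TG_DSS against TG_WT without Ctrl_DSS of batch 1 or 2 (adjusted p = 0.044 and 0.043).

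Genes around the receptor were read from lists in the same fit. In TG_DSS against Ctrl_DSS, 6 of 16 tested epithelial response genes to IL-17 and TNF rose and none fell. Their median log2 fold change was 1.71 against 0.01 over all genes, of which 3.39% were called. Nfkbiz, a regulator of IL-17 responses, had 139 and 229 CPM in TG_DSS and 45.7 and 41.3 CPM in Ctrl_DSS (log2 fold change 1.96, adjusted p = 0.0125). Lcn2, which withholds iron from bacteria, had 109 and 288 CPM in TG_DSS and 0.146 and 0.554 CPM in Ctrl_DSS (9.25, adjusted p = 0.0138). The others were the neutrophil attractants Cxcl2 (7.72) and Cxcl1 (2.31) and the calprotectin subunits S100a8 (8.03) and S100a9 (7.56). For all 6 the values of the 2 tags did not overlap.

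S100a8 and S100a9 are also abundant in neutrophils, and neutrophil markers moved with this contrast. The 12 neutrophil markers summed to 8585 and 18007 CPM in the epithelial-like sums of TG_DSS, 100.2 and 4352 in TG_WT, 68.6 and 84.7 in Ctrl_DSS and 92.9 and 92.0 in Ctrl_WT. All 12, which include S100a8 and S100a9 themselves, had UMIs in the sums of TG_DSS and of Ctrl_DSS. In TG_WT, where these markers were higher in batch 2, Lcn2 had 0.818 and 47.4 CPM (batches 1 and 2) and Cxcl2 15.7 and 648 CPM. Cxcl1 (7.04 and 15.7) and Nfkbiz (53.8 and 88.6) differed less there. The 14 macrophage markers summed to 281 and 552 CPM in TG_DSS and 63.2 and 75.4 CPM in Ctrl_DSS. Their part in the list results was not tested.

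Among 19 receptors and factors known to induce or repress Pigr, all tested, 2 rose in TG_DSS against Ctrl_DSS and none fell. Their median was 0.20 against 0.01 over all genes, of which 3.39% were called. Tlr4, the receptor for lipopolysaccharide, had 29.4 and 46.1 CPM in TG_DSS and 11.4 and 12.4 in Ctrl_DSS (log2 fold change 1.57, adjusted p = 0.0186), but a change of -0.13 in colonocyte-like and 0.37 in goblet-like clusters alone, without a call. Nfkb1, a subunit of NF-kappaB, had 68.7 and 109 CPM in TG_DSS and 36.0 and 35.0 in Ctrl_DSS (1.21, adjusted p = 0.0365). Pigr itself, with a change of -0.36, did not pass.

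Of 11 tested genes of IgA switching and of plasma cell homing and survival (of 21), 1 rose and 1 fell in that contrast. Their median was 0.23 against 0.01 over all genes, of which 3.39% were called. Tnfsf13 encodes APRIL, a cytokine for IgA switching and plasma cell survival. It had 25.7 and 30.5 CPM in TG_DSS and 55.7 and 54.3 CPM in Ctrl_DSS (log2 fold change -1.05, adjusted p = 0.0277). Cxcr4, a chemokine receptor of plasma cells and of neutrophils, had 9.52 and 32.1 CPM in TG_DSS and 0.584 and 1.44 CPM in Ctrl_DSS (4.20, adjusted p = 0.0174).

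None of 19 tested trafficking genes of transcytosis and none of 14 tested plasma program genes passed in TG_DSS against Ctrl_DSS. Rab11fip1, an effector of recycling endosomes, came nearest with 100.2 and 169 CPM in TG_DSS and 65.7 and 58.8 CPM in Ctrl_DSS (log2 fold change 0.99, adjusted p = 0.0559), and Rab25 had -0.46 (adjusted p = 0.209). Ssr4, of the translocon, had 631 and 530 CPM in TG_DSS and 824 and 939 CPM in Ctrl_DSS (-0.66, adjusted p = 0.133). The median was 0.13 for trafficking genes and -0.24 for plasma program genes. No IgD, IgE or IgG heavy chain gene passed the filter.

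In the other contrasts no gene of any list passed. In Ctrl_DSS against Ctrl_WT, Aldh1a1, which makes retinoic acid, had 57.1 and 102 CPM in Ctrl_DSS and 149.7 and 248 CPM in Ctrl_WT (log2 fold change -1.40, adjusted p = 0.0697). Fkbp11, a prolyl isomerase of the secretory pathway, had 119 and 162 CPM in Ctrl_DSS and 27.9 and 34.9 CPM in Ctrl_WT (2.09, adjusted p = 0.126). For neither gene did the 2 tags overlap. In subtypes alone Aldh1a1 was -0.57 in colonocyte-like, 1.23 in goblet-like and 0.11 in stem or transit-amplifying-like clusters, with no call, so its direction turned. Without TG_WT of batch 1 or 2 both passed the threshold, Fkbp11 with adjusted p = 0.0011 and 0.0028 and Aldh1a1 with 0.0076 and 0.0092.

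The calls in TG_DSS against Ctrl_DSS rest on few sums. The 414 genes called, 386 higher and 28 lower, became 0 without Ctrl_DSS of batch 2, 174 without Ctrl_DSS of batch 1, 67 and 47 without TG_DSS of batch 1 or 2, and 853 and 744 without TG_WT of batch 1 or 2. Without batch as a term, that is without the replicate block, the count was 0, with adjusted p = 0.085 for Nfkbiz and Tlr4. Each list gene called here lost its call without either TG_DSS sum or either Ctrl_DSS sum, except Nfkbiz without Ctrl_DSS of batch 1 (adjusted p = 0.0218). Such a fit has 1 sum in an arm, which is assumed to vary like the other tags. The log2 fold changes kept their signs, with ranges over all single omissions of 1.62 to 2.32 for Nfkbiz, 8.62 to 10.65 for Lcn2, 7.29 to 8.84 for S100a8, 1.37 to 1.74 for Tlr4, 3.96 to 4.31 for Cxcr4 and -1.22 to -0.88 for Tnfsf13. Without Ctrl_WT of batch 1 or 2, Nfkb1 (adjusted p = 0.052 and 0.053) and S100a9 (0.0502 and 0.0508) were lost too.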

How the data were processed

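The deposited files hold raw UMI counts per gene and barcode, which the authors made with Cell Ranger 7.0.0 on mm10, per the submitters' processing notes; the release of its annotation was not given in the sources used here, and 99.6% of gene identifiers were found in GENCODE M21. Cells had at least 500 UMIs and 250 genes and at most 25% mitochondrial UMIs. They were clustered with scanpy 1.11.5 (2000 variable genes, 30 components, 15 neighbours, Leiden resolution 1) and named from marker lists. Cells with more than 1 hashtag were left out of comparisons between tags. Scrublet's automatic call marked 0% of cells and had not worked, so the 9.01% highest scores served as an alternative.

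Sums of epithelial-like cells per tag and batch, with 57 to 395 cells each, were tested with edgeR 4.0.16 (quasi-likelihood, TMM, filterByExpr, Benjamini-Hochberg adjustment, threshold 0.05) in R 4.3.3, checked on simulated data. Sums of single subtypes, an alternative, held as few as 1 cell. The adjusted p-values in the text are from edgeR unless DESeq2 1.42.0 is named. Batch was a term because the labels say that the conditions of a batch were mixed and loaded together. No test was made between clusters. The members and gene lists were chosen with earlier results of these data known. Named were the 9 members and list genes past the test or otherwise up to 3 of smallest p. Also named were genes outside the lists of smallest p in contrasts with calls, and the 5 genes most like Pigr and Igha. Others are said to have been chosen after their values were seen.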

Additional observations from a re-analysis of the deposited data

Results flagged for a closer look

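The share of plasma-like among leukocyte-like cells moved in opposite directions in the 2 comparisons of DSS-named with WT-named tags. TG_DSS minus TG_WT was -3.53 percentage points in batch 1 and -0.832 in batch 2, while Ctrl_DSS minus Ctrl_WT was 6.86 and 9.59 points. Both batches of each pair moved one way, and the difference was not tested. These shares rest on 0 to 15 plasma-like cells, of any heavy chain, per tag and batch.

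A signal also appeared in an antibody gene outside the members. Ighg2c, an IgG heavy chain constant region, had 596 UMIs in barcodes of 11 to 100 UMIs of batch 2 and 0 in batch 1. They were spread over many barcodes, with at most 3 UMIs in 1 barcode over all barcodes of 100 UMIs or fewer.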

How the results depend on the processing

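Genes called changed with the setting. With DESeq2 the counts were 23 in TG_WT against Ctrl_WT, 259 in Ctrl_DSS against Ctrl_WT, 53 in TG_DSS against TG_WT and 38 in the interaction, and with no filter beyond 1 count they were 310, 600, 594 and 368, and 1234 in TG_DSS against Ctrl_DSS. With no filter the median log2 fold change of all genes ran from -0.24 in the interaction to 0.18 in Ctrl_DSS against Ctrl_WT. In the main setting these 2 medians were -0.0069 and 0.022. Without the replicate block Ctrl_DSS against Ctrl_WT had 1 call and TG_DSS against Ctrl_DSS 0, and the Pigr changes were -0.36 in TG_DSS against Ctrl_DSS, 0.14 in TG_DSS against TG_WT, -0.41 in TG_WT against Ctrl_WT, 0.09 in Ctrl_DSS against Ctrl_WT and 0.05 in the interaction. Taking each cell's highest tag gave 9 in TG_WT against Ctrl_WT, 28 in Ctrl_DSS against Ctrl_WT and 19 in the interaction. At most 10% mitochondrial UMIs gave 0 in Ctrl_DSS against Ctrl_WT. Goblet-like and stem or transit-amplifying-like clusters alone, and leaving out droplets of at least 1% immunoglobulin UMIs, were chosen after seeing the data. Colonocyte-like clusters had 3 calls in TG_DSS against TG_WT, 7 in TG_DSS against Ctrl_DSS and 1 in Ctrl_DSS against Ctrl_WT, goblet-like clusters 38, 107 and 0, and stem or transit-amplifying-like clusters 2, 4 and 1, with 2 in the interaction. Those sums held as few as 5 goblet-like cells and 1 stem or transit-amplifying-like cell (Ctrl_WT, batch 2). Leaving out 1 sum gave 0 to 210 calls in TG_WT against Ctrl_WT, 0 to 202 in Ctrl_DSS against Ctrl_WT, 0 to 192 in TG_DSS against TG_WT, 0 to 853 in TG_DSS against Ctrl_DSS and 0 to 118 in the interaction.

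Pigr passed the threshold in no setting, but its sign turned in stem or transit-amplifying-like clusters (Ctrl_DSS against Ctrl_WT -0.11, TG_DSS against Ctrl_DSS 0.14), in colonocyte-like clusters (TG_DSS against Ctrl_DSS 0.056) and, for the interaction, with no filter (-0.058), the highest tag (-0.21) and goblet-like clusters (-0.14). Without 1 sum Pigr ranged over -0.88 to 0.065 in TG_WT against Ctrl_WT, -0.30 to 0.58 in Ctrl_DSS against Ctrl_WT, -0.30 to 0.61 in TG_DSS against TG_WT, -0.44 to -0.31 in TG_DSS against Ctrl_DSS and -0.43 to 0.48 in the interaction. In TG_DSS against TG_WT, Igha was 0.26 when clustered with all genes, 0.13 without the highest Scrublet scores and 0.10 without droplets of at least 1% immunoglobulin UMIs, and Jchain 0.36, 0.29 and 0.21. Jchain in TG_WT against Ctrl_WT was -0.10 when clustered with all genes. Without 1 sum Igha in TG_DSS against TG_WT ranged over -6.80 to 0.47 and Igkc over -8.54 to 0.14. Tlr4 was -0.13 in colonocyte-like clusters. In Ctrl_DSS against Ctrl_WT, Aldh1a1 was 1.23 in goblet-like and 0.11 in stem or transit-amplifying-like clusters, Myo5b 0.21 and 0.71, and Reg3b 2.72 in goblet-like clusters, where Aldh1a1 in TG_WT against Ctrl_WT was 0.96. The causes were not tested.

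Mean levels moved beyond the spread between batches for Igkc in plasma-like cells with exactly 1 hashtag (315614 CPM, against 367065), for Jchain with at most 10% mitochondrial UMIs (68554), clustering with all genes (62650) and exactly 1 hashtag (64014, against 65649), and for Pigr in epithelial-like cells with at most 10% mitochondrial UMIs (1334) and exactly 1 hashtag (1395, against 1294). With 1 batch alone the plasma-like share was 0.107% to 0.802% in TG_DSS, 1.63% to 3.64% in TG_WT, 6.86% to 9.59% in Ctrl_DSS and 0% in Ctrl_WT. Few plasma-like cells and 2 batches limit every comparison between tags.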
